A study of Homo sapiens with 45 samples.

Results

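AC1.112 and AC1.203 are clonal lines of HEK293F, the suspension form of the human embryonic kidney line HEK293, and their messenger RNA was compared at 0 h, before any plasmid was added. The members are the 3 libraries whose titles give AC1.112 at 0 h and the 3 whose titles give AC1.203 at 0 h, 6 of the 45 libraries of the series. The series followed 5 lines (293F, AC1P, AC1.112, AC1.203 and AC1.230) through production of recombinant adeno-associated virus (AAV) after transfection with 3 plasmids, sampled at 0, 24 and 72 h. Lines of high and of baseline virus output were compared in the study, but the sample labels do not say which lines these were, so no output is attached to either clone here. The labels give both clones as wild type and clonal, AC1P as wild type and polyclonal, and 293F as wild type; they name no added allele or agent at 0 h. All of them grew in suspension in the same Expi293 medium. Each clone is 1 line, so what distinguishes these clones from each other and what accompanies any trait of theirs cannot be told apart. The labels do not state that the 3 libraries of a clone came from separate cultures. The p-values therefore measure the spread between libraries of the same line and time, which may be technical. That spread was estimated over all 45 libraries together.

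A clonal line descends from a single cell, whereas a polyclonal pool holds the descendants of many. HEK293 cells have an aneuploid karyotype that differs between sublines and express genes of kidney, neuronal and epithelial lineages side by side. AAV production in these cells relies on adenovirus early genes held in the genome together with helper, capsid and vector plasmids, and the state of the cell before transfection is the starting point of the 0 h libraries. DNA copy number was not measured in the files used here.

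Among the genes that separated the clones most sharply were 24 protein-coding genes with at most 3 reads in total in one clone and at least 1 CPM, reads scaled to a common library size, in every library of the other, 12 in each direction. The stretch just upstream of the transcription start is shown for 4 of them, P4HTM from the set found in AC1.112 and SLITRK2, HACD4 and MAGEB2 from the set found in AC1.203. They were picked after their values were seen, as examples whose RefSeq and GENCODE start sites lie close together. The sequences are RefSeq promoters on build GRCh38.p14, given 5′ to 3′ on the strand of the gene and ending before the transcribed bases, and capitals mark each CG dinucleotide, the base pair step at which vertebrate DNA is methylated.
P4HTM, chr3:48989658-48989885, plus strand: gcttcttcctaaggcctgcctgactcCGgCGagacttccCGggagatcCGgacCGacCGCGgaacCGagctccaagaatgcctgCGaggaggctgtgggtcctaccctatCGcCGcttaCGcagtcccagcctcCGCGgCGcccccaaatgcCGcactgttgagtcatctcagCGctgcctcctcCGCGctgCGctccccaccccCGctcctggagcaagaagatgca
SLITRK2, chrX:145817579-145817828, plus strand: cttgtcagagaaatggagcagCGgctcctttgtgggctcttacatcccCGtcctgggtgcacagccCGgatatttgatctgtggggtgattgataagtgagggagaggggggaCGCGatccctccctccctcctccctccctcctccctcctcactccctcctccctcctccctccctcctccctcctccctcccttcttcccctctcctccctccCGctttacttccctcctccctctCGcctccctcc
HACD4, chr9:21031641-21031890, minus strand: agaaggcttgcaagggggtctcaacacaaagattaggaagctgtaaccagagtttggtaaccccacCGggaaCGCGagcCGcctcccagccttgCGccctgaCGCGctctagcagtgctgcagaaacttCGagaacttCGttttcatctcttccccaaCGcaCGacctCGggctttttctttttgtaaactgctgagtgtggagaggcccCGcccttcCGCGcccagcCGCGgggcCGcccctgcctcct
MAGEB2, chrX:30215313-30215559, plus strand: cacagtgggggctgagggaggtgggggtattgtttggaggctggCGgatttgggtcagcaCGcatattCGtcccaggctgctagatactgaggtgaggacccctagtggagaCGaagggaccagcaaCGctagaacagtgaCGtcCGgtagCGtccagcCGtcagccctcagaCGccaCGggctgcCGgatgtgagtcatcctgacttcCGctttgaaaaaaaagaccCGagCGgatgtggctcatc
The stretches hold 21 CG steps in P4HTM, 18 in HACD4, 15 in MAGEB2 and 7 in SLITRK2. Over the 300 bases that RefSeq lists around a start (50 of them transcribed), a CG step, which reads the same on both strands, was present in 99.5% of the 12122 tested protein-coding genes with an entry, and the median count was 25, with quartiles of 16 and 34. Of the 24 genes with at most 3 reads in one clone, 20 had an entry, and their median count was 13. This is a description of the sequence; DNA methylation was not measured in the files used here.

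The 6 libraries held between 27934779 and 49239986 counted reads, 27992171 to 49239986 in AC1.112 and 27934779 to 36855683 in AC1.203, within the range of 24727028 to 59837051 of all 45. Across genes, which are not independent replicates, the log2 CPM of libraries of the same clone correlated at r = 0.984 to 0.989. All 9 genes set as markers of the HEK293 background were read in both clones, with summed levels of 6333 to 7309 CPM in AC1.112 and 6291 to 7121 CPM in AC1.203. Of 21242 genes tested, 10439 passed an adjusted p under 0.05 in edgeR's quasi-likelihood test, 5277 (24.8%) higher in AC1.112 and 5162 (24.3%) higher in AC1.203. A gene is called here when it also differed at least 2-fold, and 2752 genes (13%) were called, 1195 (5.63%) higher in AC1.112 and 1557 (7.33%) higher in AC1.203. Asked instead whether the fold itself exceeded 2, the test passed 1052 genes, 460 and 592. The median log2 difference of all tested genes was −0.0043. Log2 differences below are AC1.112 minus AC1.203 with their standard error, and levels are TMM-scaled CPM (TMM, trimmed mean of M values), as the mean ± SD of 3 libraries; where one level is set against another, that of AC1.112 comes first.

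P4HTM gave the widest separation among genes higher in AC1.112. This gene (ENSG00000178467, chr3:48989886-49007154) encodes a transmembrane prolyl 4-hydroxylase of the endoplasmic reticulum. Its level was 44.8, 42.1 and 43.1 CPM in the AC1.112 libraries, and no read was counted in any AC1.203 library. Set against a floor of 3 reads over the AC1.203 group, it was at least 1335-fold higher in AC1.112 (edgeR adjusted p = 2.40e-42). B3GALNT1 (ENSG00000169255, chr3:161083883-161105384), the globoside synthase, was read at 31.7, 27.4 and 31.1 CPM in AC1.112, while the AC1.203 group held 1 read. The ratio of its reads was 2773.5, with an exact 95% interval of 497 to 109580 that covers counting error only. No library of one clone came near the other for either gene.

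The other genes at the upper end included a desmosomal plaque protein, a nuclear hormone receptor and a bone morphogenetic protein. PKP3, plakophilin of desmosomes, was at 23.9 ± 2.49 CPM in AC1.112 and 0.0808 ± 0.0609 CPM in AC1.203 (log2 difference 8.24 ± 0.22, edgeR adjusted p = 4.50e-41). PGR, the progesterone receptor, stood at 14.4, 15.1 and 17 CPM in AC1.112 and at 0.132, 0.406 and 0.345 CPM in AC1.203 (log2 difference 5.71 ± 0.29, edgeR adjusted p = 1.0e-21). BMP2, a secreted ligand of the bone morphogenetic protein family, stood at 9.29, 10.1 and 8.63 CPM and 0.230, 0.111 and 0.317 CPM (log2 difference 5.35 ± 0.24, edgeR adjusted p = 1.53e-28). In all 3, the lowest AC1.112 library lay well above the highest AC1.203 library. The same separation was seen in the hyaluronan synthase HAS2 (25.2 ± 1.87 against 0.452 ± 0.0422 CPM), the ephrin receptor EPHB1 (15.1 ± 1.49 against 0.497 ± 0.0583 CPM), the mitochondrial carrier SLC25A43 (31.3 ± 2.52 against 0.872 ± 0.236 CPM), the zinc finger gene ZNF544 (17.4 ± 1.5 against 0.110 ± 0.190 CPM) and PTCHD1 (8.98 ± 1.25 against 0.0822 ± 0.0867 CPM), whose log2 differences ran from 4.91 (EPHB1) to 7.28 (ZNF544). Below them in level, but with no or hardly any reads in AC1.203, were the glutamate receptor subunit GRIA4 (6.73, 5.95 and 6.20 CPM in AC1.112, no read in AC1.203), the growth factor PDGFD (5.41, 4.97 and 5.24 CPM, 1 read in AC1.203), the ETS transcription factor FLI1 (4.23, 4.84 and 4.39 CPM, no read) and ASB11 (3.54, 3.12 and 4.16 CPM, 3 reads). GRIA4 was at least 195-fold and FLI1 at least 138-fold higher in AC1.112 against the floor of 3 reads over the group. For PDGFD the ratio of reads was 481 (exact 95% interval 86.0 to 19035) and for ASB11 it was 109 (36.95 to 529.9).

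**Figure D1:**
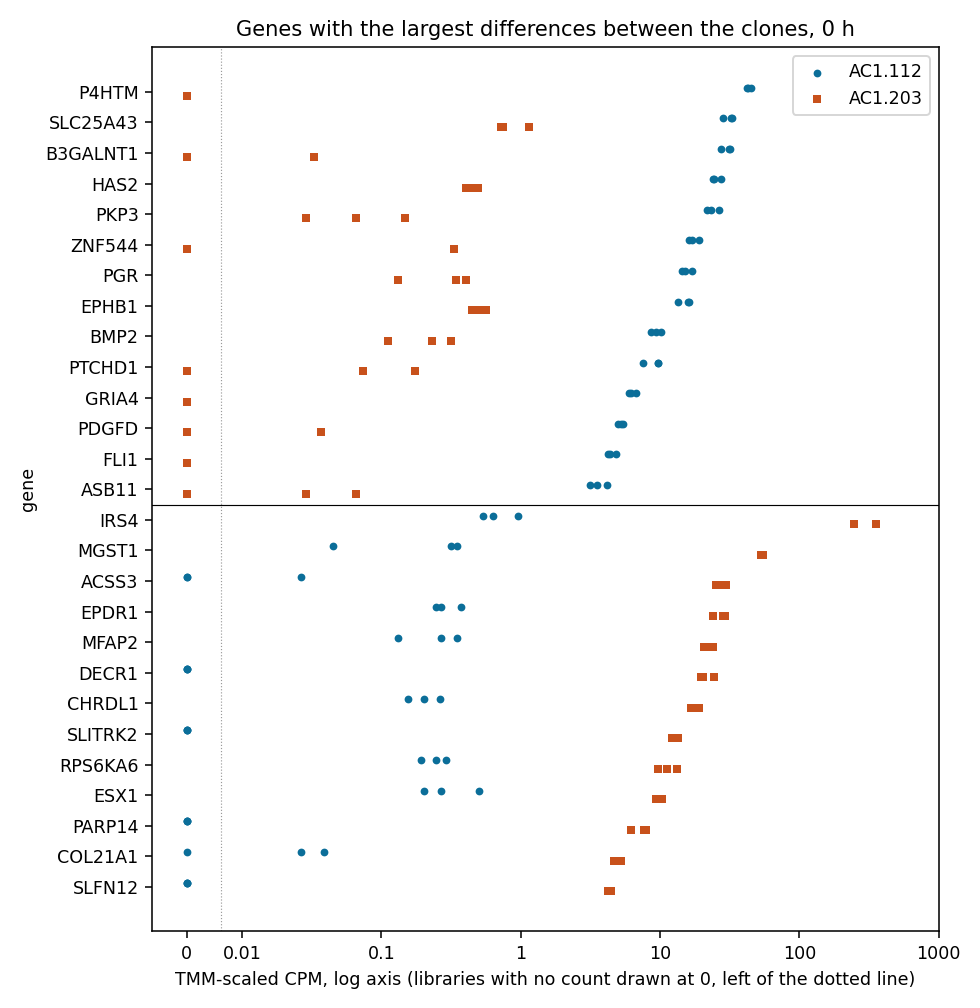
Level of each gene in each of the 6 libraries at 0 h, as TMM-scaled CPM on a log axis, with circles for AC1.112 and squares for AC1.203; libraries with no read are drawn at 0. Genes above the horizontal line were higher in AC1.112 and those below it in AC1.203, and in no gene do the circles and squares overlap; IRS4 spans from 0.537 CPM in the lowest AC1.112 library to 355 CPM in the highest AC1.203 library.

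In the opposite direction, IRS4 showed the largest gap in CPM among the leading genes. IRS4 (ENSG00000133124, chrX:108732482-108736409) encodes an insulin receptor substrate found in HEK293 cells. It was read at 0.537, 0.634 and 0.963 CPM in the AC1.112 libraries and at 246, 355 and 353 CPM in the AC1.203 libraries, library 1 being the lowest of the latter (log2 difference −8.87 ± 0.18, edgeR adjusted p = 3.49e-28). Among the next were 3 enzymes of lipid metabolism or detoxification. DECR1, the mitochondrial 2,4-dienoyl-CoA reductase of fatty acid oxidation, had no read in AC1.112 and stood at 24.2, 19.7 and 20.3 CPM in AC1.203, at least 775-fold higher against the floor of 3 reads over the group. ACSS3, a mitochondrial short-chain acyl-CoA synthetase, had 1 read in AC1.112 and 25.2, 28.5 and 29.8 CPM in AC1.203, a ratio of reads of 3025 (exact 95% interval 542 to 119520.0). MGST1, the microsomal glutathione S-transferase, was at 0.236 ± 0.166 CPM in AC1.112 and 53.9 ± 1.12 CPM in AC1.203 (log2 difference −7.96 ± 0.18, edgeR adjusted p = 7.76e-39). Extracellular and signalling proteins made up most of the remainder: the microfibril protein MFAP2 (0.249 ± 0.109 against 22.4 ± 1.61 CPM), the ependymin-related EPDR1 (0.295 ± 0.0658 against 27.1 ± 2.65 CPM), the BMP antagonist CHRDL1 (0.207 ± 0.0553 against 18.1 ± 1.232 CPM), the ribosomal S6 kinase RPS6KA6 (0.243 ± 0.0492 against 11.4 ± 1.84 CPM) and the homeobox gene ESX1 (0.324 ± 0.158 against 9.83 ± 0.536 CPM). Their log2 differences ran from −6.53 (MFAP2) to −4.91 (ESX1).

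Genes read in AC1.203 and not in AC1.112 included 3 further ones among the 6 with the highest CPM. SLITRK2, a neuronal transmembrane protein of the synapse, stood at 12.3, 13.4 and 12.6 CPM in AC1.203 with no read in AC1.112, at least 460.0-fold higher against the floor of 3 reads. PARP14, an ADP-ribosyltransferase known among interferon-stimulated genes, stood at 6.18, 7.72 and 7.86 CPM with no read in AC1.112, at least 263-fold higher, and SLFN12, of the Schlafen family, at 4.47, 4.21 and 4.35 CPM with no read, at least 157-fold higher. COL21A1, a fibril-associated collagen, had 2 reads in AC1.112 and 5.06, 5.28 and 4.66 CPM in AC1.203 (ratio of reads 270.0, exact 95% interval 74.3 to 2236). HACD4, a 3-hydroxyacyl-CoA dehydratase, had no read in AC1.112 and 4.96, 3.36 and 4.12 CPM in AC1.203, at least 151-fold higher. The 24 genes kept their direction: all 12 found in AC1.112 and all 12 found in AC1.203 were called in the same direction at 24 h and at 72 h, in other libraries of the same clones. At 0 h, 8 of the former and 6 of the latter reached 1 CPM in AC1P, 3 and 2 in AC1.230, and 8 and 9 in 293F. P4HTM, for example, was at 18.9 in AC1P, 0.487 in AC1.230 and 21.2 in 293F CPM, and DECR1 at 2.50 in AC1P, 0.00756 in AC1.230 and 0.0414 in 293F CPM.

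Gene lists are described by counts, and each is to be read against the shares over all genes, of which 13% were called, 24.8% passed as higher in AC1.112 and 24.3% passed as higher in AC1.203. Genes of signalling pathways differed in both directions. In the bone morphogenetic protein pathway, secreted ligands act through receptor serine kinases and SMAD proteins on targets such as the ID genes. Of 43 measured members of the TGF-beta and BMP list, 20 passed as higher in AC1.112 and 7 as higher in AC1.203, with 7 and 2 called (20.9% called, against 13% of all genes) and a median log2 difference of 0.27. Besides BMP2, the ligand BMP7 stood at 54.8, 53.2 and 51.1 CPM in AC1.112 and 21.9, 19.5 and 20.2 CPM in AC1.203 (log2 difference 1.37 ± 0.07, edgeR adjusted p = 1.70e-25). The target gene ID2 stood at 136, 128 and 133 CPM and 55.7, 57.9 and 58.8 CPM (log2 difference 1.2 ± 0.06, edgeR adjusted p = 1.18e-25). Both sets of libraries were far apart relative to their spread. INHBE, an inhibin beta subunit, went the other way (0.204 ± 0.174 against 1.42 ± 0.265 CPM, log2 difference −2.64).

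Members of the FGF, EGF and ERK list passed in nearly equal numbers, 15 higher in AC1.112 and 16 higher in AC1.203 of 48, with a median of −0.0023 that turned to 0.0026 under DESeq2's size factors. Called members made up 22.9%, against 13% of all genes, 7 higher in AC1.112 and 4 higher in AC1.203. The former included the intracellular FGF homologue FGF13 (10.9 ± 0.798 against 0.538 ± 0.111 CPM, log2 difference 4.35 ± 0.19), the receptor FGFR2 (38.7 ± 0.710 against 18.6 ± 1.26 CPM), the ERK phosphatase DUSP4 (13.5 ± 1.111 against 5.45 ± 0.316 CPM) and the IGF-binding protein IGFBP4 (7.78 ± 0.990 against 2.79 ± 0.533 CPM). The 4 called as higher in AC1.203 were FGF12, a relative of FGF13 (log2 difference −1.53), the receptor ERBB3 (−1.52), the IGF-binding protein IGFBP6 (−1.34) and the ligand AREG (−1.67). In the Wnt list, 16 of 43 passed as higher in AC1.112 and 8 as higher in AC1.203 (median 0.13). Its called members were low in level: the secreted antagonist SFRP1 was at 1.42 ± 0.451 against 0.0918 ± 0.0716 CPM and the ligands WNT9A and WNT7B at 2.50 ± 0.491 against 1.10 ± 0.203 CPM and 1.15 ± 0.372 against 0.385 ± 0.186 CPM, while the antagonist WIF1 was higher in AC1.203 (0.0385 ± 0.0667 against 0.660 ± 0.317 CPM).

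NF-kB targets gave the highest list median, 0.44, with 12 of 26 members passing as higher in AC1.112 and 1 as higher in AC1.203. Called members made up 11.5%, a share near the 13% of all genes. RELB, a subunit of the factor itself, stood at 16.2, 19.9 and 17 CPM in AC1.112 and 5.36, 5.32 and 4.35 CPM in AC1.203 (log2 difference 1.83 ± 0.11, edgeR adjusted p = 3.58e-22). The chemokine CXCL8 was at 4.42 ± 1.64 against 0.542 ± 0.268 CPM (log2 difference 3.02 ± 0.34), its AC1.112 library 3 standing above the other two, and the inhibitor NFKBIA, itself a target, at 23 ± 0.560 against 12.1 ± 0.908 CPM (log2 difference 0.92 ± 0.07). CCL20 was low in both clones (0.550 ± 0.157 against 0.156 ± 0.104 CPM); it passed at an edgeR adjusted p of 0.0145 and was lost without AC1.203 library 2. At 24 h the median of this list was −0.06 and at 72 h 0.17.

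Innate immune genes leaned to AC1.203. Of 46 interferon-stimulated genes and sensors, 18 passed as higher in AC1.203 and 11 as higher in AC1.112, with 9 and 3 called (26.1% called, against 13% of all genes). PARP14 was the extreme case. The deubiquitinase of ISG15, USP18, stood at 2.80, 3.30 and 4.27 CPM in AC1.112 and 12.1, 13 and 10.9 CPM in AC1.203 (log2 difference −1.82 ± 0.13, edgeR adjusted p = 6.77e-20), with no overlap. IFI6 was at 4.07 ± 0.531 CPM and 13 ± 1.79 CPM, and the RNA sensor IFIH1 at 0.128 ± 0.0737 CPM and 1.34 ± 0.309 CPM. Of 20 genes of HLA class I presentation, 11 passed as higher in AC1.203 and 3 as higher in AC1.112, and the median was −0.30. HLA-C was at 114 ± 2.17 CPM in AC1.112 and 228 ± 11.5 CPM in AC1.203 (log2 difference −1.0 ± 0.06, edgeR adjusted p = 1.90e-24). NLRC5, the transactivator of these genes, was at 2.65 ± 0.469 against 8.56 ± 1.77 CPM (log2 difference −1.67 ± 0.17). The immunoproteasome subunits PSMB9 and PSMB8 were near the limit of reading, at 0.269 ± 0.233 against 1.0 ± 0.516 CPM and 0.122 ± 0.168 against 0.659 ± 0.312 CPM. HLA genes share sequence with near-identical copies, and how such reads were counted is not given in the sources used here, so their values are uncertain.

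Matrix and adhesion genes passed more often as lower in AC1.112 than as higher. Of 53 measured genes of the extracellular matrix and integrins, 29 passed as higher in AC1.203 and 14 as higher in AC1.112, with 10 and 5 called (28.3% called, against 13% of all genes) and a median of −0.33. SPARC, a secreted calcium-binding matrix protein, stood at 27.2, 26.8 and 23.6 CPM in AC1.112 and 133, 118 and 128 CPM in AC1.203 (log2 difference −2.28 ± 0.07, edgeR adjusted p = 3.91e-37). COL5A2, a fibrillar collagen chain, stood at 3.58, 3.30 and 4.12 CPM and 31.3, 30.5 and 29 CPM (log2 difference −3.06 ± 0.11, edgeR adjusted p = 1.88e-33). The clones did not overlap in either gene. The basement membrane genes LAMB1, a laminin chain, and COL4A6, a collagen IV chain, were at 46.4 ± 3.85 against 141 ± 0.438 CPM and 22.8 ± 1.42 against 91.8 ± 2.90 CPM. Markers of fibroblasts moved the same way: 3 of the 4 (LUM, DCN and PDGFRA) passed as higher in AC1.203, their sum with COL1A1 was 12.9 to 13.8 CPM in the AC1.112 libraries and 31.7 to 34.8 CPM in the AC1.203 libraries, and none was at 0 in either clone. LUM, which also belongs to the matrix list, stood at 0.626, 1.110 and 1.5 CPM and 16.5, 16.3 and 19.5 CPM. Their part in the difference of the matrix genes was not tested, and PDGFRA was lost without AC1.203 library 1.

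Cadherins and protocadherins, the calcium-dependent adhesion molecules, had a list median of −0.45, with 15 of 37 measured members passing as higher in AC1.203 and 4 as higher in AC1.112. Called members made up 32.4%, against 13% of all genes. P-cadherin (CDH3) stood at 4.90, 4.97 and 4.62 CPM in AC1.112 and 24.1, 19.3 and 22.2 CPM in AC1.203 (log2 difference −2.17 ± 0.11, edgeR adjusted p = 2.14e-26), and its chromosomal neighbour E-cadherin (CDH1) at 0.0433 ± 0.0394 CPM and 1.84 ± 0.0526 CPM. The protocadherins PCDH17 and PCDH19 were at 4.64 ± 0.604 against 15.4 ± 1.35 CPM and 0.948 ± 0.166 against 2.72 ± 0.439 CPM. Neuronal genes were split, 7 of 34 passing as higher in AC1.112 and 11 as higher in AC1.203 (median −0.09): the adhesion molecule CNTN1 (8.38 ± 0.603 against 31.7 ± 1.97 CPM) and the growth cone protein GAP43 (3.05 ± 0.185 against 9.41 ± 0.779 CPM) were higher in AC1.203, and the low-level STMN4 (0.637 ± 0.0513 against 0.0808 ± 0.0609 CPM) and SNAP25 (1.03 ± 0.112 against 0.238 ± 0.181 CPM) in AC1.112.

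Developmental regulators of the kidney were split as well, 9 of 37 members of the kidney and epithelial list passing as higher in AC1.112 and 10 as higher in AC1.203 (27% called, against 13% of all genes, median −0.02). The transcription factor gene LHX1 stood at 8.12, 8.67 and 7.35 CPM in AC1.112 and 1.81, 1.81 and 2.79 CPM in AC1.203 (log2 difference 1.90 ± 0.16, edgeR adjusted p = 8.86e-16), EMX2 was at 10.4 ± 0.639 against 4.01 ± 0.470 CPM and PAX2 at 1.43 ± 0.404 against 0.466 ± 0.130 CPM. TWIST2, a mesenchymal factor, was at 7.88 ± 1.16 against 1.58 ± 0.628 CPM, and the tight junction gene CLDN6 was higher in AC1.203 (0.175 ± 0.115 against 1.56 ± 0.240 CPM). Among HOX genes, which hold positional identity, 6 of 36 passed as higher in AC1.112 and 7 as higher in AC1.203, and the list median of 0.03 turned to −0.0040 when libraries were scaled by their totals. HOXD13, HOXA9 and HOXD8 passed with log2 differences of −0.41, −0.36 and −0.46. Over the whole HOX list the log2 differences ran from −1.98 to 0.80, and 1 member was called, as higher in AC1.203. Of 22 imprinted genes, 5 passed as higher in AC1.112, with the smallest p in the growth factor IGF2 (3.72 ± 0.572 against 0.874 ± 0.109 CPM, log2 difference 2.11 ± 0.18), and 8 as higher in AC1.203, with the smallest p in DLX5 (2.64 ± 0.666 against 5.85 ± 0.121 CPM). Of 13 measured germline and cancer-testis genes, 5 passed as higher in AC1.203 and 1 as higher in AC1.112. MAGEB2 had 1 read in AC1.112 and stood at 3.12, 1.81 and 2.71 CPM in AC1.203, a ratio of reads of 280.0 (exact 95% interval 49.8 to 11106), while the RNA-binding LIN28B was at 116 ± 6.35 CPM and 213 ± 11.7 CPM (log2 difference −0.88 ± 0.05).

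**Figure D2:**
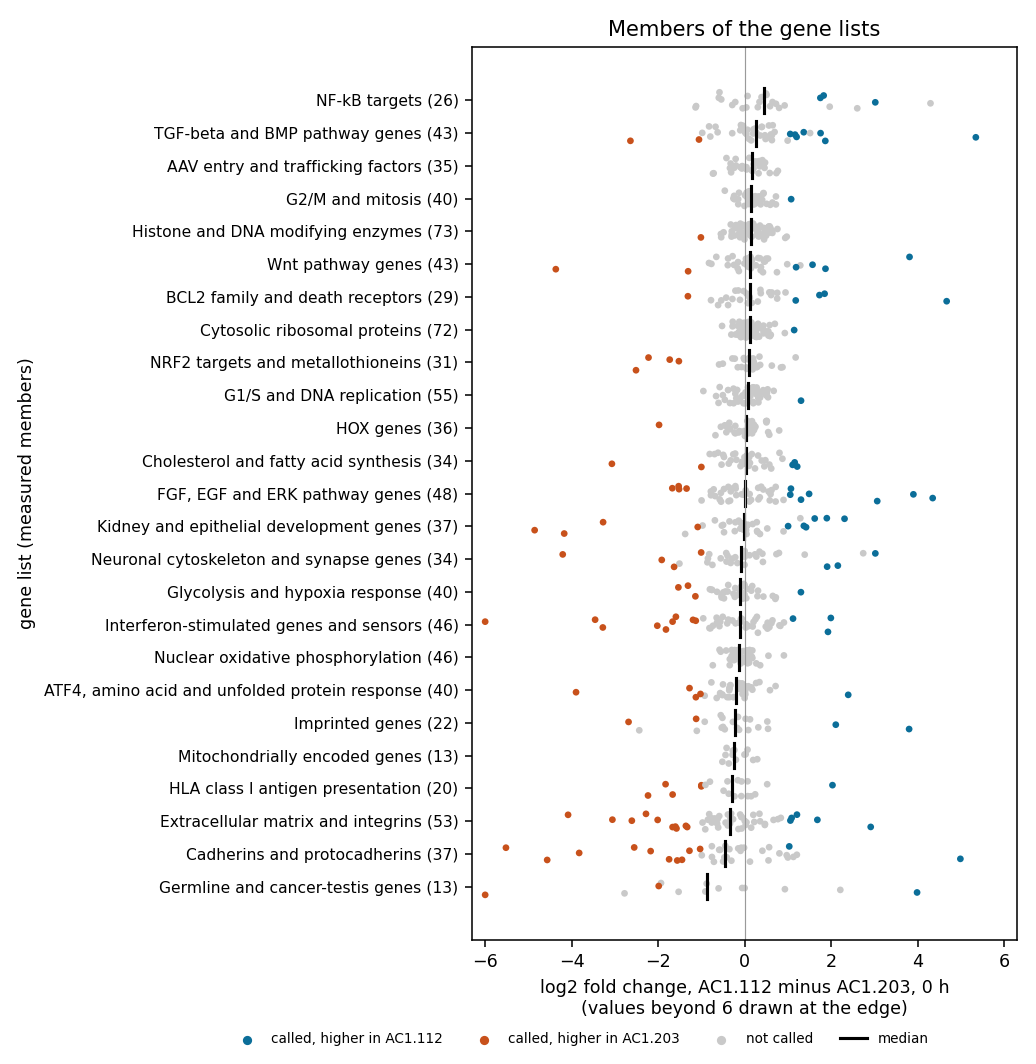
Log2 difference at 0 h, AC1.112 minus AC1.203, of every measured member of each pathway or gene family list described (lists of cell type markers are not drawn), with the list median as a black bar and the number of measured members in parentheses; coloured points were called. The medians drawn run from −0.88 in germline genes to 0.44 in NF-kB targets, and most members of the cell cycle, ribosomal and chromatin lists sit within 1 of 0.

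Genes of apoptosis and of the cell cycle passed more often on the AC1.112 side. Among BCL2 family and death receptor genes, 13 of 29 passed as higher in AC1.112 and 7 as higher in AC1.203. The pro-apoptotic BBC3 was at 109.9 ± 7.10 against 57.1 ± 7.34 CPM and the ubiquitin ligase MDM2, of another list, at 373 ± 4.50 against 229 ± 9.20 CPM. The sensitiser HRK stood at 27.3, 26.2 and 23.8 CPM and 6.31, 6.35 and 8.69 CPM (log2 difference 1.85 ± 0.09, edgeR adjusted p = 1.60e-26), and the caspase inhibitor XIAP at 51.7, 48.4 and 61.8 CPM and 21.9, 26 and 23.3 CPM (log2 difference 1.18 ± 0.07, edgeR adjusted p = 2.82e-23). The inflammatory caspase CASP4 was nearly unread in AC1.203 (0.630 ± 0.262 against 0.0219 ± 0.0194 CPM), and CASP10 was higher there (4.49 ± 0.812 against 11 ± 0.644 CPM).

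In the G2/M list 21 of 40 members passed as higher in AC1.112 and 5 as higher in AC1.203 (median 0.15), and in the G1/S list 26 and 15 of 55 (median 0.08), against 24.8% and 24.3% of all genes. Only 1 member of each was called. The proliferation marker MKI67 stood at 227, 273 and 289 CPM in AC1.112 and 115, 131 and 128 CPM in AC1.203 (log2 difference 1.08 ± 0.09, edgeR adjusted p = 7.54e-13), and the inhibitor CDKN2B was at 9.38 ± 1.37 against 3.85 ± 0.883 CPM. The mitotic regulators FOXM1, KIF11 and AURKB passed with log2 differences of 0.72, 0.64 and 0.72. The origin recognition subunit ORC6 was higher in AC1.203 (31.3 ± 1.67 against 60.7 ± 1.62 CPM). Of 73 enzymes that modify histones or DNA, 34 passed as higher in AC1.112 and 14 as higher in AC1.203, the median was 0.15, and 1 was called. That gene, the DNA methyltransferase DNMT3B, stood at 22.8, 24.0 and 21.1 CPM in AC1.112 and 34.9, 51.6 and 50.7 CPM in AC1.203, where library 1 was lower than the other two (log2 difference −1.01 ± 0.08, edgeR adjusted p = 1.30e-16). The acetyltransferase KAT2A and the X-linked HDAC8 and KDM5C were higher in AC1.112, by 0.76, 0.94 and 0.55 on the log2 scale.

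Metabolic genes gave a mixed account. Sterol synthesis enzymes differed in both directions, 13 of 34 members of the cholesterol and fatty acid list each way, with a median of 0.02 that turned to −0.02 with library totals. Of its members 14.7% were called, a share near the 13% of all genes. Those called as higher in AC1.112 were SQLE, squalene epoxidase, at 391, 386 and 369 CPM in AC1.112 and 178, 169 and 167 CPM in AC1.203 (log2 difference 1.16 ± 0.05, edgeR adjusted p = 7.13e-32), LSS, lanosterol synthase (151 ± 5.60 against 70.1 ± 5.70 CPM), and NSDHL, a demethylation enzyme of the X chromosome (37.4 ± 2.55 against 16.1 ± 1.49 CPM). TM7SF2, a sterol reductase, was higher in AC1.203 (6.3 ± 0.836 against 12.7 ± 1.57 CPM). Glycolytic and hypoxia-responsive genes passed more often on the AC1.203 side, 17 of 40 against 9, with the glucose transporter SLC2A3 (6.42 ± 0.184 against 18.5 ± 1.14 CPM) and the isoenzymes ENO2 (19.3 ± 0.718 against 42.5 ± 1.44 CPM) and ALDOC (6.75 ± 0.765 against 16.9 ± 0.582 CPM) called there and the hypoxia factor EPAS1 (11.1 ± 0.312 against 4.47 ± 1.17 CPM) called in AC1.112. Called genes made up 10% of this list, against 13% of all genes. None of 46 nuclear genes of oxidative phosphorylation was called, against 13% of all genes. Of the 46, 19 passed as higher in AC1.203 and 4 as higher in AC1.112, with a list median of −0.12. The median log2 level of this list varied between libraries of the same clone with an SD of 0.11, close to that difference in size. SDHC and COX4I1 differed by −0.74 and −0.55, and the X-linked NDUFA1 by 0.91. Of 13 mitochondrially encoded genes, 4 passed, all higher in AC1.203, with the smallest p in MT-ND5 (1268 ± 36.1 against 1812 ± 221 CPM, log2 difference −0.52 ± 0.14, edgeR adjusted p = 0.00196). Counts on the mitochondrial chromosome took 3.21% to 3.24% of the AC1.112 libraries and 3.40% to 3.90% of the AC1.203 libraries.

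Cytosolic ribosomal protein genes passed on the AC1.112 side in 30 of 72 and on the AC1.203 side in 4, with a median of 0.11. Between libraries of the same clone, the median log2 level of this list varied with an SD of 0.12, no smaller than that difference. RPL10, of the X chromosome, was the called member and stood at 1862, 1927 and 1702 CPM in AC1.112 and 884, 758 and 841 CPM in AC1.203 (log2 difference 1.15 ± 0.06, edgeR adjusted p = 1.07e-26). RPS24, RPS27 and RPL29 differed by 0.70, 0.55 and 0.58. Ribosomal protein genes have many processed copies in the genome, and how reads shared with them were counted is not given in the sources used here.

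Stress response lists differed in their counts. Of 40 genes of the ATF4, amino acid and unfolded protein response list, 20 passed as higher in AC1.203 and 7 as higher in AC1.112 (median −0.19). Called members made up 12.5% of it, a share near the 13% of all genes. ALDH1L2, the mitochondrial folate dehydrogenase, stood at 2.10, 2.30 and 3.43 CPM in AC1.112 and 36.1, 37.2 and 39.8 CPM in AC1.203 (log2 difference −3.90 ± 0.14, edgeR adjusted p = 6.28e-32). DDIT4, an inhibitor of mTOR signalling, was at 22.7 ± 2.14 against 54.8 ± 2.68 CPM and the secreted STC2 at 18.2 ± 0.894 against 40 ± 1.33 CPM, while the stress factor NUPR1 was higher in AC1.112 (6.64 ± 0.50 against 1.25 ± 0.740 CPM, log2 difference 2.39 ± 0.18). Of 31 NRF2 targets and metallothioneins, 9 passed each way and 4 (12.9%) were called, a share near the 13% of all genes. The called members, all higher in AC1.203, were haem oxygenase HMOX1 (19.6, 21.7 and 20.1 CPM in AC1.112, 64.5, 54.1 and 57.5 CPM in AC1.203), GSTM4 (0.895 ± 0.101 against 5.07 ± 0.419 CPM), NQO1 (1.49 ± 0.334 against 4.91 ± 1.38 CPM) and the metallothionein MT1G (0.507 ± 0.112 against 2.39 ± 0.757 CPM). Genes for AAV entry and trafficking, from receptors to endosomal and Golgi transport, had no called member, against 13% of all genes; 18 of 35 passed as higher in AC1.112 and 9 as higher in AC1.203. The endosomal GTPases RAB5A and RAB7A and the integrin ITGB5 were higher in AC1.112 by 0.73, 0.47 and 0.77 on the log2 scale, and the Golgi tether COG4 was higher in AC1.203 (−0.73).

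Markers of other cell types were at low levels in both clones. The haematopoietic, endothelial and hepatocyte markers each summed to at most 3.42 CPM in any of the 6 libraries. TTR was at 0 in both clones, PTPRC at 0 in AC1.112, and CD3E and CDH5 at 0 in AC1.203. Of the 3 muscle markers, DES (0.622 ± 0.183 against 2.43 ± 0.106 CPM) and ACTC1 (0.248 ± 0.160 against 1.21 ± 0.376 CPM) were called as higher in AC1.203. MYH7, with 6 reads in AC1.112 and 1 in AC1.203, went the other way and did not pass. The muscle markers summed to 0.77 to 1.06 CPM in the AC1.112 libraries and 3.16 to 4.06 CPM in the AC1.203 libraries. Of the HEK293 background markers, LHX1, EMX2 and PAX2 were called as higher in AC1.112, and KRT8 passed with a log2 difference of −0.23, a result lost without AC1.203 library 1.

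Genes that passed in the same direction lay together on particular chromosomes. Among the 15151 tested protein-coding genes placed on a numbered chromosome or X, 30.4% passed as higher in AC1.112 and 28.4% as higher in AC1.203, with a median of 0.012. On chromosome 14, 315 of 480 genes (65.6%) passed as higher in AC1.203 and 27 as higher in AC1.112, and the median was −0.37. On chromosome 21, 99 of 144 (68.8%) passed as higher in AC1.112 and 12 as higher in AC1.203, and the median was 0.43. Chromosome 3 (median 0.25, 51.9% higher in AC1.112) and chromosome 10 (0.23, 47.2%) also stood towards AC1.112, and chromosome 13 (−0.24, 50.6% higher in AC1.203) towards AC1.203. Their shifts were uneven along the chromosome, in windows of 10 Mb with at least 10 tested genes. On chromosome 3 the window medians were 0.27 to 0.84 up to position 60000000 and −0.06 to 0.26 beyond it. On chromosome 10 they ran from −0.53 (start 50000001) to 1.114 (start 130000001). On chromosome 13 they were −0.40 to −0.20 up to position 80000000, and 0.26, 0.20 and 0.46 beyond it. After transfection chromosome 14 was at −0.39 at 24 h and −0.41 at 72 h, and chromosome 21 at 0.36 and 0.41, nearly the same size. Chromosome 3 was at 0.26 and 0.28 and chromosome 10 at 0.19 and 0.20. The median of chromosome 13 was smaller, at −0.14 and −0.15. At 0 h the share of called genes was 12.5% on chromosome 14, 11.8% on 21 and 11.4% on 3. It was 12.3% on chromosome 10 and 14.6% on 13, against 11.6% of genes on the numbered chromosomes. Chromosomes 14 and 21, and parts of 3, 10 and 13, thus stood out by the shared direction of their genes. The called shares of these chromosomes were not far from that of the rest. The libraries of a clone agreed closely. On chromosome 14 the median level, relative to the mean of the 15 libraries of all lines at 0 h, was −0.37, −0.38 and −0.36 in AC1.112 and 0.02, 0.01 and 0.05 in AC1.203.

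The genome was then divided into windows of 10 Mb, 292 of which held at least 10 tested protein-coding genes. The 5 lowest medians were at chrX:100000001-110000000 (−1.52), chr1:190000001-200000000 (−0.80), chr4:180000001-190000000 (−0.72), chr1:180000001-190000000 (−0.64) and chr16:40000001-50000000 (−0.55). The 5 highest were at chrX:140000001-150000000 (1.2), chr10:130000001-140000000 (1.114), chrX:150000001-160000000 (0.97), chrX:120000001-130000000 (0.96) and the first 10 Mb of chromosome 3 (0.84). In the adjoining chromosome 1 windows, 26 of 35 and 17 of 20 genes passed as higher in AC1.203, among them the phospholipase PLA2G4A (8.50 ± 0.787 against 43.6 ± 2.18 CPM), the polarity gene CRB1 (0.378 ± 0.174 against 7.44 ± 1.44 CPM) and RGS2 (5.71 ± 0.896 against 17 ± 1.32 CPM), an inhibitor of G protein signalling. In the chromosome 4 window, 23 of 31 did, among them TRAPPC11 (21.6 ± 1.19 against 42.3 ± 3.18 CPM) and DCTD (62.0 ± 3.50 against 102 ± 4.08 CPM). In the chromosome 16 window 10 of 16 passed as higher in AC1.203, but none was called; LONP2 was at 51.3 ± 2.48 against 82.6 ± 1.96 CPM. On the first 10 Mb of chromosome 3, 21 of 31 genes passed as higher in AC1.112. The repair genes there, RAD18 and OGG1, were at 80.4 ± 2.39 against 29.5 ± 1.96 CPM and 41.2 ± 1.55 against 16.8 ± 0.250 CPM, and MTMR14 at 70.1 ± 6.43 against 27.2 ± 2.00 CPM. In the chromosome 10 window 16 of 26 passed as higher in AC1.112, among them DPYSL4 (8.85 ± 1.16 against 0.747 ± 0.177 CPM) and TUBGCP2 (138 ± 4.96 against 80 ± 4.17 CPM), and FUOM alone as higher in AC1.203 (8.66 ± 0.114 against 25.3 ± 1.36 CPM). The median of this window ran from 0.87 to 1.06 when single libraries were left out, all below the 1.114 of the full set, and it was 0.57 at 24 h and 0.69 at 72 h.

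**Figure D3:**
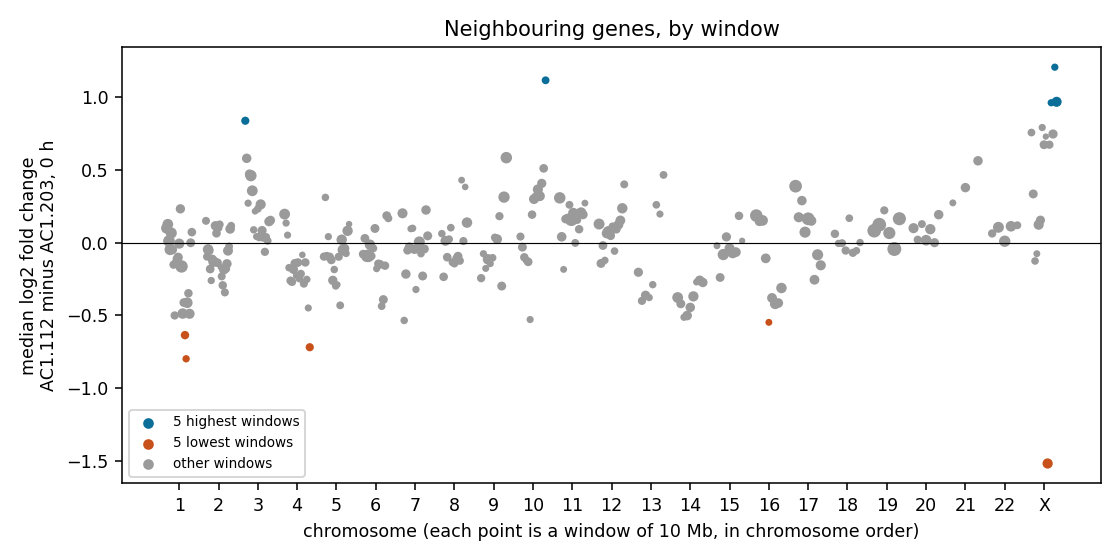
Median log2 difference at 0 h, AC1.112 minus AC1.203, of the tested protein-coding genes in each window of 10 Mb, in order along each chromosome, with larger points for more genes and colours for the 5 highest and 5 lowest windows. The chromosome X window at −1.52 lies far below every other window, the other X windows reach 1.2, and the windows of chromosome 14 all lie below 0.

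Chromosome X held both the lowest and the highest windows. Of its 570 tested protein-coding genes 205 (36%) were called, against 11.6% of the genes on the numbered chromosomes. The longest stretch without a gene passing as higher in AC1.112 ran over 86 consecutive tested genes from NAP1L3 to ALG13 (chrX:93670930-111760649), a stretch found after the values were seen. In it 77 genes passed as higher in AC1.203 and 69 were called, and the median was −1.55. By its definition the stretch ends at genes passing as higher in AC1.112. These were KLHL4 (2.30 ± 0.368 against 0.678 ± 0.211 CPM) and AMOT (17 ± 1.62 against 5.93 ± 0.338 CPM). The 86 genes of the stretch gave medians of −1.40 at 24 h and −1.41 at 72 h, with 76 and 77 passing as higher in AC1.203. TMEM35A passed in the opposite direction at 72 h, at a level of 0.0853 ± 0.0753 against 0 ± 0 CPM.

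The stretch holds several gene families that sit side by side. All 8 measured TCEAL genes (transcription elongation factor A-like), all 5 BEX genes (brain-expressed X-linked), all 6 ARMCX genes (armadillo repeat, X-linked) and all 3 GPRASP genes (G protein-coupled receptor sorting) passed as higher in AC1.203, with family medians of −1.5, −1.87, −1.75 and −1.67. Members of these families resemble each other, and reads they share are uncertain for the reason given above. The chromatin protein gene MORF4L2 stood at 327, 315 and 329 CPM in AC1.112 and 1053, 947 and 989 CPM in AC1.203 (log2 difference −1.62 ± 0.05, edgeR adjusted p = 3.32e-39). TCEAL4 stood at 46.6, 47.7 and 43.4 CPM and 165, 136 and 138 CPM, and GPRASP2 at 29.9, 31 and 31.3 CPM and 97.6, 96.4 and 98.2 CPM. In each of these, every AC1.203 library was above 2 times any AC1.112 library. IRS4, CHRDL1, ESX1 and the head-to-head collagen IV genes COL4A5 (19.5 ± 1.53 against 58.4 ± 7.23 CPM) and COL4A6 lie in the same stretch, as do the lysosomal galactosidase GLA (47.7 ± 1.99 against 154 ± 10.4 CPM), the nucleotide enzyme PRPS1 (142 ± 1.74 against 366 ± 25.3 CPM), the acyl-CoA synthetase ACSL4 (41.5 ± 5.28 against 166 ± 4.15 CPM), the kinase PAK3 (0.680 ± 0.117 against 18.4 ± 3.16 CPM) and the glucocorticoid-induced TSC22D3 (5.44 ± 0.824 against 43.4 ± 2.67 CPM); these were chosen as examples after their values were seen.

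Outside the stretch the rest of chromosome X leaned the other way. Of 484 genes, 291 passed as higher in AC1.112 and 52 as higher in AC1.203, and the median was 0.51 at 0 h, 0.58 at 24 h and 0.59 at 72 h. The 0 h values set the cut between the stretch and the rest. Over all 570 genes of the chromosome the median was 0.31 at 0 h. The innate signalling kinase IRAK1 stood at 320.3, 335 and 312 CPM in AC1.112 and 104, 105 and 113 CPM in AC1.203 (log2 difference 1.59 ± 0.05, edgeR adjusted p = 9.62e-38). The translational regulator FMR1 was at 70.2 ± 3.00 against 30 ± 0.715 CPM, the ubiquitin ligase scaffold CUL4B at 117 ± 1.89 against 51.2 ± 2.33 CPM and the palmitoyltransferase ZDHHC9 at 91.2 ± 3.61 against 36 ± 2.21 CPM. ZNF185 (23.7 ± 2.21 against 5.84 ± 0.872 CPM), UTP14A (60.5 ± 3.71 against 26.3 ± 1.36 CPM) and TMEM185A (25.7 ± 1.61 against 9.23 ± 0.310 CPM) completed the genes with the smallest p in the high windows, together with SLITRK2, which went against its neighbours. XIAP, RPL10, HDAC8, NSDHL and NDUFA1, described above with their pathways, are X-linked genes of this part of the chromosome.

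**Figure D4:**
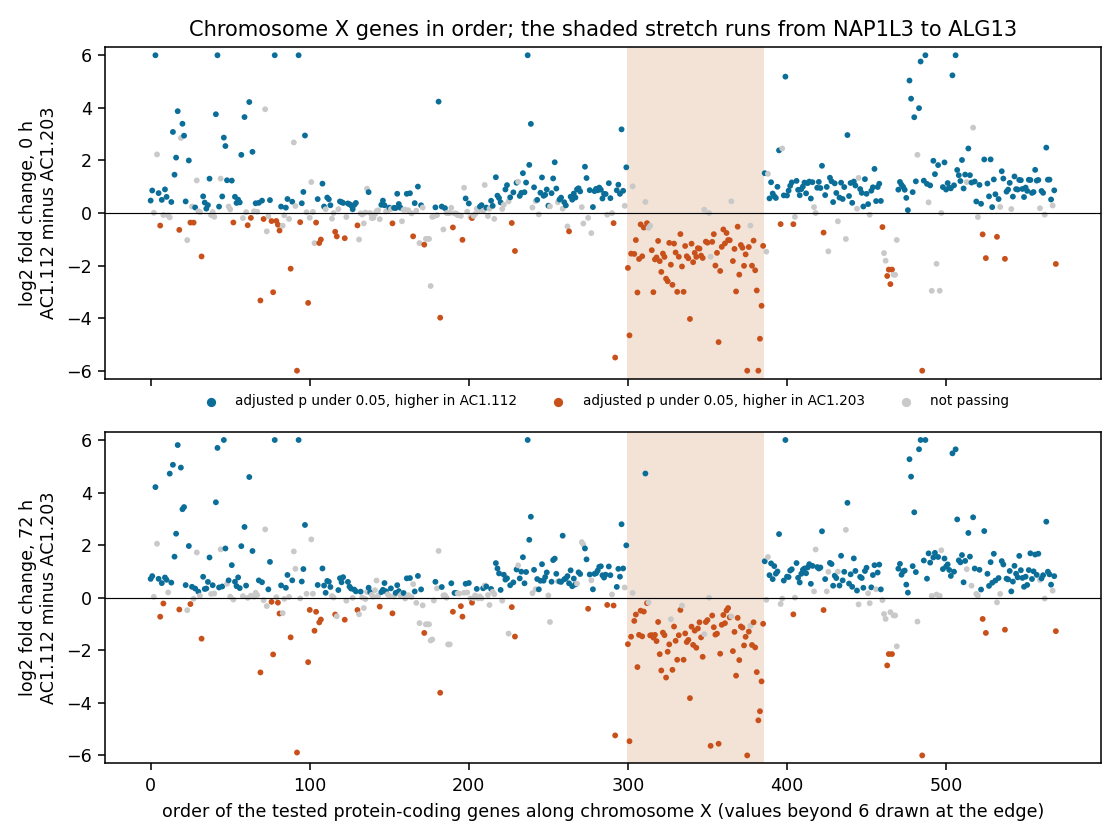
Log2 difference of each tested protein-coding gene of chromosome X in chromosome order, AC1.112 minus AC1.203, at 0 h (top) and 72 h (bottom), coloured where the adjusted p was under 0.05; the shaded stretch runs from NAP1L3 to ALG13. Genes inside the shaded stretch, which was chosen by the 0 h values, lie mostly below 0, with a median of −1.55 at 0 h and −1.41 at 72 h. Genes on both sides of it lie mostly above 0.

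Levels in the other lines at 0 h place these differences. In the window chrX:100000001-110000000 the median level, relative to the mean of the 15 libraries at 0 h, was −0.57 in AC1.112, −0.57 in AC1.230, −0.25 in AC1P, 0.56 in 293F and 0.81 in AC1.203. In chrX:150000001-160000000 it was −0.83 in AC1.203 and −0.04 in 293F, and 0.12, 0.20 and 0.60 in AC1.112, AC1P and AC1.230. On the first 10 Mb of chromosome 3, AC1.112 stood above the rest at 0.56, with 0.30 in 293F, −0.06 in AC1.230, −0.20 in AC1P and −0.22 in AC1.203. On chromosome 14, AC1.112 was the lowest at −0.37, with −0.02 in AC1P, 0.03 in AC1.203, 0.16 in 293F and 0.22 in AC1.230. IRS4, for instance, was at 4.25 in AC1P, 0.257 in AC1.230 and 629 in 293F CPM. Over single genes, AC1P was nearer to AC1.112 than to AC1.203 in 907 of the 1195 genes called as higher in AC1.112 (75.9%) and in 1116 of the 1557 called as higher in AC1.203 (71.7%). AC1.230 was nearer to AC1.112 in 784 (65.6%) and 982 (63.1%), and 293F in 737 (61.7%) and 456 (29.3%). The root mean square log2 difference over tested genes was 0.858 between the clones, 0.527 between AC1.112 and AC1P, 0.748 between AC1.203 and AC1P, and 0.737 and 0.917 between AC1.230 and AC1.112 and AC1.203. These are descriptions of group means, with no test.

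Most of the clone differences were read again in the later libraries. After transfection 2378 genes (11.2%) were called between the clones at 24 h and 2780 (13.1%) at 72 h. Of the 1195 genes called as higher in AC1.112 at 0 h, 710 were called in the same direction at 24 h (59.4% of the 0 h genes and 55.5% of those called at 24 h) and 749 at 72 h (62.7% and 62.4%). Of the 1557 called as higher in AC1.203, 754 were called again at 24 h (48.4% and 68.6%) and 1059 at 72 h (68.0% and 67.0%). Calls in the opposite direction numbered 2 and 7 at 24 h and 5 and 1 at 72 h.

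The change of the clone difference with time was tested by an interaction term. It passed in 3908 genes (18.4%) for 24 h against 0 h and in 978 (4.60%) for 72 h against 0 h. The latter count rested on single libraries, at 477 without AC1.112 library 2 and 1490 without AC1.203 library 1, both at 0 h. Of the 2752 genes called at 0 h, 487 passed at 24 h. The change ran against the 0 h difference in 423 of them, including genes carried to the other side of 0, and with it in 64. At 72 h 165 passed, 142 with a change against the 0 h difference and 23 with a change in its direction. These genes had been chosen by the size of their 0 h difference, which the comparison with later times also uses.

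DHRS2, a short-chain dehydrogenase, had the smallest interaction p at 24 h among the genes called at 0 h. It stood at 28.3, 33.9 and 27.1 CPM in AC1.112 and 6.48, 6.02 and 4.98 CPM in AC1.203 at 0 h (log2 difference 2.36 ± 0.09), at 32.2 ± 0.707 against 17.6 ± 0.732 CPM at 24 h and at 43.5 ± 2.62 against 38.9 ± 1.87 CPM at 72 h. The log2 difference was 0.87 and 0.16 at those times (edgeR adjusted p of the change 3.14e-14 and 6.21e-23). TP73, a transcription factor gene, went from 18.9 ± 0.379 against 5.17 ± 0.356 CPM at 0 h to 19.9 ± 2.84 against 14.6 ± 0.913 CPM at 24 h and 24.8 ± 1.79 against 16.1 ± 0.127 CPM at 72 h. RELB went to 19.8 ± 1.97 against 17.5 ± 0.576 CPM at 24 h, a log2 difference of 0.17 (edgeR adjusted p of the change 5.98e-13). MRC2, an endocytic collagen receptor, was higher in AC1.203 at 0 h (36.3 ± 2.55 against 80.2 ± 1.66 CPM), at 20.1 ± 0.695 against 22.7 ± 1.49 CPM at 24 h and at 39.6 ± 1.26 against 96.8 ± 5.08 CPM at 72 h. The linker histone gene H1-2 changed sides: it was at 9.37 ± 0.646 CPM in AC1.112 and 3.82 ± 0.300 CPM in AC1.203 at 0 h and at 22.1 ± 1.79 against 51.6 ± 1.35 CPM at 72 h (log2 difference −1.22, edgeR adjusted p of the change 6.21e-23). SLC30A2, a zinc exporter, did so too, from 4.63 ± 1.08 against 2.13 ± 0.513 CPM at 0 h to 9.28 ± 0.598 against 15.2 ± 0.719 CPM at 72 h (log2 difference −0.71, edgeR adjusted p of the change 4.36e-10).

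**Figure D5:**
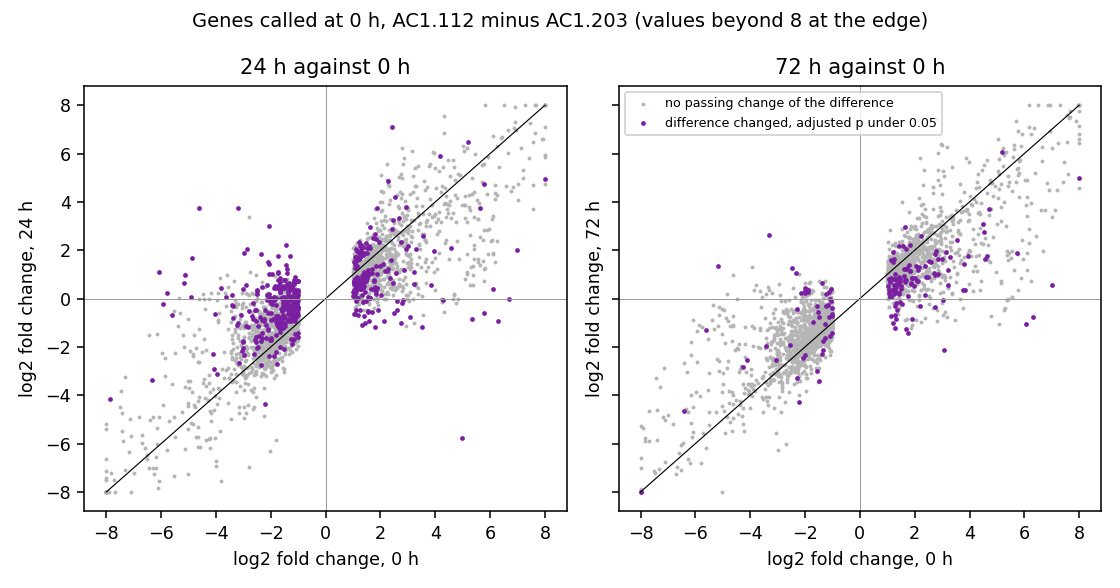
Log2 difference, AC1.112 minus AC1.203, of the genes called at 0 h, plotted against the difference of the same genes at 24 h (left) and 72 h (right); purple points had a change of the difference with an adjusted p under 0.05, and the line marks equal values. The purple points number 487 at 24 h and 165 at 72 h, and most of them lie closer to 0 on the vertical axis than on the horizontal one.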

How the data were processed

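The authors deposited 1 table for each library, with a whole-number count of reads for each of 60675 Ensembl genes. HISAT2, Subread, featureCounts and GRCh38 are named per the submitters' processing notes; for software versions, strand setting and gene annotation, nothing is given in the sources used here. The libraries were made from poly(A) RNA with a stranded kit, per the labels' protocols. With the strand setting unknown, a gene and an antisense or overlapping partner may share reads, and so may near-identical copies. A symbol was found for 56558 IDs, and 1-based GRCh38 coordinates come from GENCODE 29.

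Groups came from the sample titles. All 45 libraries were fitted together in R 4.3.3 with edgeR 4.0.16 (TMM scaling, filterByExpr with a minimum count of 10 and total of 15, glmQLFit with robust estimation, glmQLFTest), with 15 group means and no block, so the 6 libraries compared share an estimate of the spread with the rest. The contrasts were AC1.112 minus AC1.203 at 0, 24 and 72 h and the changes of that difference. Calls needed a p below 0.05 after Benjamini-Hochberg adjustment over all 21242 genes and a difference of at least 2-fold. DESeq2 1.42.0, other scalings, no filter, thinned counts, a replicate block and fewer libraries were alternatives. The fit was tested on simulated data.

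Named genes were protein-coding: the 10 highest and the 10 lowest log2 differences among called genes of at least 8 CPM in the higher clone whose libraries did not overlap; the 6 of highest CPM each way among called genes with at most 3 reads in one clone and at least 1 CPM in every library of the other; up to 4 members of each list by p (or, with few called, passing or the most abundant members); up to 3 genes for each described window; and, of the called genes, the 4 of smallest interaction p at each later time. Other genes shown were picked after their values were seen. The members and lists were chosen with earlier results of these data known. Some items withheld for evaluation are not reported here. Lists and windows are described by counts and medians, without a test. Ratios resting on few reads carry an exact 95% interval, and a clone with no read is set at a floor of 3 reads over its 3 libraries; both cover counting error only.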

Additional observations from a re-analysis of the deposited data

Results flagged for a closer look

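Of 172 genes described, the difference between the clones departed from that at 0 h in 50 at 24 h and in 24 at 72 h. The rule was an adjusted p under 0.05 in edgeR's interaction test, which 18.4% and 4.60% of all genes passed. Some of the 172 had been named for a small interaction p and others for their 0 h difference. The counts are therefore not a result about these genes as a set. Values are changes of the log2 difference, AC1.112 minus AC1.203, from 0 h to the later time, so that a positive value moved towards AC1.112. The clones' libraries at 0 h enter every one of these tests.

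At 24 h, differences that had favoured AC1.112 shrank most in RELB (−1.66), DHRS2 (−1.49), TP73 (−1.43), HAS2 (−1.02), DPYSL4 (−0.95), DUSP4 (−0.91), NUPR1 (−0.78), H1-2 (−0.71) and IGF2 (−0.69). NFKBIA (−1.04) and, from the AC1.203 side, ERBB3 (2.31) moved to the other side of 0. Smaller reductions were seen in IRAK1 (−0.59), FOXM1 (−0.59), UTP14A (−0.54), HRK (−0.52), MTMR14 (−0.40), KAT2A (−0.38), TUBGCP2 (−0.34), RAB7A (−0.24), RAB5A (−0.23) and KIF11 (−0.19). Differences that had favoured AC1.203 shrank in the matrix and adhesion genes LUM (1.17), COL5A2 (0.89), PCDH19 (0.86), LAMB1 (0.62), CDH3 (0.52) and COL4A6 (0.37). They shrank also in CNTN1 (1.08), MRC2 (0.97), NLRC5 (0.81), TSC22D3 (0.64), PLA2G4A (0.59), ENO2 (0.43), TRAPPC11 (0.42), HOXD8 (0.40), COG4 (0.38), ORC6 (0.33), ACSL4 (0.30) and SDHC (0.21). Differences grew in MT1G (−2.13), SLC25A43 (1.28), ID2 (0.70), DNMT3B (−0.42), STC2 (−0.34), GPRASP2 (−0.32), RPL29 (0.24) and LIN28B (−0.23). COL21A1, PDGFD and RBP7, with hardly a read in one clone at 0 h, passed with edgeR adjusted p of 0.00529, 0.0137 and 0.0155, but the size of their change depends on how zero counts are handled and is not given.

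At 72 h, STMN4 (−3.08), H1-2 (−2.51) and SLC30A2 (−1.85) moved to the other side of 0. Differences shrank in DHRS2 (−2.20), CHRDL1 (1.74), TP73 (−1.25), DPYSL4 (−1.10), LHX1 (−1.05), NUPR1 (−1.03), IGF2 (−0.93), DUSP4 (−0.74), RELB (−0.69), BMP7 (−0.64), COL5A2 (0.50), ERBB3 (0.98), NFKBIA (−0.43) and FOXM1 (−0.22). They grew in MT1G (−2.07), SLC25A43 (0.89), ID2 (0.73), DNMT3B (−0.42), KRT8 (−0.37) and MDM2 (0.23). FLI1, with no read in AC1.203 at 0 h, passed with an edgeR adjusted p of 0.0325.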

How the results depend on the processing

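The count of genes called at 0 h ran from 2449 with only the 6 libraries compared in the fit to 2841 with DESeq2, and from 2549 to 2628 when single libraries were left out; tested against a fold of 2 it was 1052, a stricter question. At 24 h leaving out a library gave 2209 to 2318 calls and at 72 h 2564 to 2667. The change of the difference passed in 2954 to 4011 genes for 24 h and in 477 to 1490 for 72 h without single libraries, the lowest without AC1.112 library 2 of 0 h and the highest without AC1.203 library 1 of 0 h; DESeq2 gave 1413 for 72 h. Same-numbered libraries of the clones did not deviate together (correlations over genes of 0.007, −0.023 and −0.019). These correlations cannot tell whether such libraries were handled together, which the labels do not state. With the replicate number as a block 2713 genes were called at 0 h, 2705 of them shared with the reported calls. Scaling by library totals moved the median of all genes by −0.04 and DESeq2's size factors by 0.0046; with library totals the windows starting at 100000001 and 150000001 on chromosome X had medians of −1.56 and 0.93. Leaving out single libraries at 0 h, the described windows ran over −1.56 to −1.41 (chromosome X, 100000001), 0.93 to 0.99 (X, 120000001), 1.13 to 1.26 (X, 140000001), 0.95 to 1.03 (X, 150000001), 0.87 to 1.06 (chromosome 10), 0.65 to 0.84 (chromosome 3), −0.67 to −0.60 (chromosome 1, 180000001), −0.92 to −0.75 (chromosome 1, 190000001), −0.69 to −0.56 (chromosome 4) and −0.57 to −0.46 (chromosome 16). The cause of these shifts was not tested. Of 173 named genes, 107 kept their direction and their side of the threshold in all 14 settings; 58 changed only against the fold of 2 and 8 in another setting. VWF and APOA1, marker genes near 0 that did not pass, changed sign without AC1.112 library 2 (−0.089 and −0.41) and reached 0.54 and 0.90 without AC1.112 library 1. Depth limits statements on genes near 0 CPM, for which only a floor or an interval is given.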

Other observations

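The remaining genes with at most 3 reads in one clone and at least 1 CPM in every library of the other were of mixed function. On the AC1.112 side were GLYATL2 (3.00 ± 0.363 CPM in AC1.112), an acyltransferase, the semaphorin SEMA6D (2.04 ± 0.522), AFF2 (1.84 ± 0.450), a transcription elongation factor of the X chromosome, the ubiquitin ligase DTX4 (1.59 ± 0.0239), the glutaminase GLS2 (1.55 ± 0.0741) and the paired box factor PAX7 (1.40 ± 0.194). On the AC1.203 side were NME5 (4.29 ± 0.224 CPM in AC1.203), FRRS1L (2.86 ± 0.434), a protein of glutamate receptor assembly, GRAMD2B (2.74 ± 0.471) and the retinol-binding RBP7 (2.47 ± 0.517). In the clone without them, DTX4, GLS2 and FRRS1L had no read at all.

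Long stretches without an opposing gene were found on other chromosomes too, by the same count of consecutive tested protein-coding genes used for chromosome X and likewise chosen after the values were seen. The longest without a gene passing as higher in AC1.112 held 94 genes of chromosome 14, from RPS29 to SPTB (chr14:49570984-64879907), with 84 passing as higher in AC1.203, 12 called and a median of −0.51 (−0.44 at 24 h and −0.46 at 72 h). Stretches of 88 genes each lay on chromosome 13, from FRY to ALG11 (64 passing, median −0.38), and on chromosome 16, from PSMB10 to VAT1L (61 passing, median −0.45). The longest without a gene passing as higher in AC1.203 held 77 genes of chromosome 9, from TOR1B to NOTCH1 (chr9:129803153-136545786), with 61 passing as higher in AC1.112, 16 called and a median of 0.67. By comparison, the chromosome X stretch of 86 genes held 69 called genes.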
